A study of Mus musculus with 9 samples.

Results

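The genes described here are 4 members of the nonclassical MHC class I family, H2-M3, H2-T23, Cd1d1 and Mr1, read on Affymetrix arrays of day 10 dendritic cells. They were taken by their symbol in the platform's annotation, and each probe set, the group of probes that reads one transcript, is shown apart. In all, 3 of the 4 genes have a probe set of their own, against 8387 genes with one in the series: H2-M3 has 2, Cd1d1 has 1 and Mr1 has 1. For H2-T23 no probe set carries its symbol alone, so only probe sets that it shares with other genes are given. H2-M3 came to attention through its low values in IAb-/- cells of experiments 2 and 3, so its differences between IAb-/- and B6 are a description with no test, and those of the other members are treated in the same way.

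Classical class I molecules show peptides from inside the cell to CD8 T cells. The nonclassical molecules have the same build, a heavy chain paired with the light chain beta-2 microglobulin, but vary little between individuals and hold particular ligands. H2-M3 binds peptides that begin with formyl-methionine, as bacterial and mitochondrial proteins do. H2-T23 encodes Qa-1, which holds leader peptides of other class I molecules and is read by the CD94/NKG2A receptor of NK cells. Cd1d1 encodes CD1d, which shows lipids to NKT cells, and Mr1 encodes the molecule that shows vitamin B metabolites to MAIT cells. Dendritic cells present through all of these routes beside MHC class II.

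The study set dendritic cells labelled CIITA-/-, lacking the transactivator that switches on class II genes, and cells labelled IAb-/-, after the beta chain of the class II molecule I-A (gene H2-Ab1), against wild-type B6 cells. Each group has 3 arrays, 1 for each of experiments 1, 2 and 3, and all hold total RNA of day 10 dendritic cells with no treatment named in the labels. Experiment 1 was run on another array design, so its values stand beside the others and not on the same scale. Age, sex, the strain background of both knockouts and whether arrays came from separate mice are not stated in the labels, so p-values measure array-to-array spread, part or all of which may be technical. The experiment of 1 CIITA-/- array is not named in its title, and it was taken as 2, the number left in its group.

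Values are intensities in arbitrary units, and some lie below 0. A noise limit was set where 95% of the negative values are smaller in size, and lies at 1701 for experiments 2 and 3 and at 2203 for experiment 1. With so few arrays, precision is limited throughout. The class II alpha chain gene H2-Aa, a known target of CIITA, read -1520 and -2254 in CIITA-/- cells, against 51407 and 53578 in B6 cells, while H2-Ab1 read 16070 and 9621 in IAb-/- cells, against 17261 and 21348 in B6 cells. The Ciita probe set read 1601 and 1639 in CIITA-/- cells and 398 and 644 in IAb-/- cells, against 623 and 933 in B6 cells, and was under the noise limit on all 9 arrays. The place of the H2-Ab1 and Ciita probes relative to the deleted parts is unknown, and no label is checked by them. All 14 dendritic cell markers chosen exceeded the limit on at least 1 array of experiments 2 and 3, while 0 of 5 T cell and 0 of 5 NK cell markers did. Of 8 macrophage markers 2 did (Csf1r and Cd14), with Adgre1 and the C1q genes under it, as did 2 of 8 neutrophil markers and 3 of 5 B cell markers. The summed macrophage markers were at 11739 to 11915 in CIITA-/- cells, 10236 to 12855 in IAb-/- cells and 9206.5 to 11282.5 in B6 cells. CIITA-/- and B6 did not overlap there, but the sums include markers under the noise limit. Sums of the T cell and NK cell markers, none above the limit, did not overlap between IAb-/- and B6 either. They were at 643.5 to 788 against 203.5 to 609 (T cell), and 1254 to 1399 against 823 to 1176 (NK cell). The other sums of a knockout group and B6 overlapped. No level is read from these gaps, and the part of other cell types in the results below was not tested.

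H2-M3 was lower in both knockout groups by its brighter probe set. In experiments 2 and 3 it read 2314.5 and 2160.5 in CIITA-/- cells and 1447 and 1492 in IAb-/- cells, against 3577 and 3267 in B6 cells. The ranges of the 3 groups did not overlap, but how many of all probe sets separate in this way was not counted. Both IAb-/- values lie under the noise limit and are those through which H2-M3 was chosen. In experiment 1 it read 3354 in CIITA-/- cells and 2943 in IAb-/- cells, against 4701 in B6 cells, the same order on the other array design. In bulk RNA, fewer cells that carry a transcript and less of it in each cell cannot be told apart.

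Upstream sequences are shown as context for the CIITA-/- comparison: as background, CIITA acts on class II promoters that carry spaced X2 and Y boxes. Whether such letters bear on H2-M3 in these cells was not tested. The following 3 stretches are the 250 bases before the annotated gene start in RefSeq (GRCm38.p6): H2-M3 at chr17:37269984-37270233 (plus strand), H2-T23 at chr17:36032702-36032951 (minus strand), and, as a class II gene that fell in CIITA-/- cells, H2-Aa at chr17:34287824-34288073 (minus strand). They are written 5′ to 3′ on the gene's strand, and capitals mark matches on either strand to TGACG (X2 core), CCAAT (Y core, ATTGG on the other strand) or TTTC, any 2 bases and TTTC (interferon response core). These letters and the spacing below were chosen with the sequences in view.
H2-M3: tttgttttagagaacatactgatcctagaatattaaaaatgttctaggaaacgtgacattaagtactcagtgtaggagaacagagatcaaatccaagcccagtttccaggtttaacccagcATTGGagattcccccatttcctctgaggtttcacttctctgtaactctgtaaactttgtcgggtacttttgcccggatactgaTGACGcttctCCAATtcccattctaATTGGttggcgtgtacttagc
H2-T23: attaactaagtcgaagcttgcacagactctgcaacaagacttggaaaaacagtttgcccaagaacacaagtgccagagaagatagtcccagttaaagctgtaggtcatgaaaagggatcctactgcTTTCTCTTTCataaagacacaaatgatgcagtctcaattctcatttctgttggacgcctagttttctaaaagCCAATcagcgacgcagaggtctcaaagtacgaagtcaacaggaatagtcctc
H2-Aa: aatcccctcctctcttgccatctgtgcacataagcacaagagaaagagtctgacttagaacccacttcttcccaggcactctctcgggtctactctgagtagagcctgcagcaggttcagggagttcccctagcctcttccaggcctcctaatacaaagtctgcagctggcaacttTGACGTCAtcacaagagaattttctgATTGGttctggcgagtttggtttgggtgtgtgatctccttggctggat

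In H2-M3, TGACG lies at -46 to -42 from the gene start and ATTGG at -21 to -17 on the same strand, with 20 bases between them. H2-Aa has the same pair at -74 to -44, with 21 bases between; its X2 core also matches on the other strand in overlapping letters. The H2-T23 window held a CCAAT at -52 to -48 and an interferon response core at -124 to -115 but no TGACG, and that of Mr1 held none of these motifs. No window was given for Cd1d1. Among 32851 windows of the same length, TGACG was found in 17.8%, CCAAT in 33.8%, the interferon response core in 2.98%, and the pair in this order with 15 to 30 bases between in 0.49%. H2-K1, H2-D1, H2-Q7 and B2m also held the pair. A match is a match of letters and does not show that a factor binds there.

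**Figure D1:**
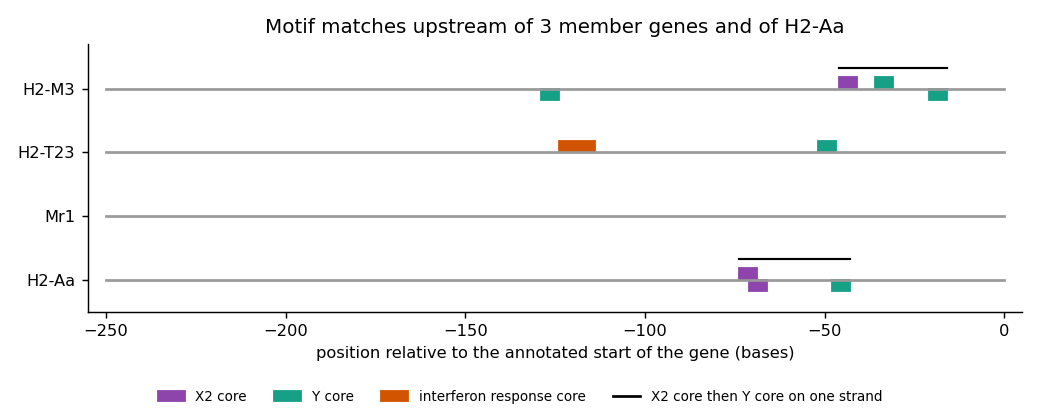
Matches to the X2 core, the Y core and the interferon response core in the 250 bases upstream of H2-M3, H2-T23, Mr1 and H2-Aa, with position relative to the annotated gene start on the x axis. Blocks above a line are on the gene's strand and blocks below it on the other strand; black bars span the X2 core followed by ATTGG on one strand, which H2-M3 and H2-Aa hold with 20 and 21 bases between.

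In CIITA-/- against B6 cells the H2-M3 difference was of like size in each experiment. The probe set averaged 2238 ± 109 in CIITA-/- cells and 3422 ± 219.6 in B6 cells (SD, n = 2 each). Its log2 difference was -0.61 (SE 0.14, 95% interval -0.98 to -0.24), and it did not pass over all 9312 probe sets tested (limma, adjusted p = 0.59, unadjusted p = 0.0084). Within experiments the log2 differences were -0.49, -0.63 and -0.60 in experiments 1, 2 and 3, so all 3 CIITA-/- arrays were below their B6 array. The B6 arrays are those of the comparison through which H2-M3 was chosen, so this is not independent of that choice.

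In IAb-/- against B6 cells H2-M3 was lower still. It averaged 1469.6 ± 31.7 in IAb-/- cells and 3422 ± 219.6 in B6 cells (SD, n = 2 each). Both IAb-/- arrays of experiments 2 and 3 lay under the noise limit, so the fold has only a bound, at least 2.01-fold lower. With the IAb-/- values set to that limit, the log2 differences were -1.07 or lower in experiment 2 and -0.94 or lower in experiment 3. In experiment 1 the log2 difference was -0.68, with both values above the noise limit of that design, and the IAb-/- value was 0.626 of the B6 value.

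Set against each other, IAb-/- cells had less H2-M3 signal than CIITA-/- cells in each experiment. The log2 difference, IAb-/- minus CIITA-/-, was -0.19 in experiment 1, and with the IAb-/- values set to the noise limit it was -0.44 or lower in experiment 2 and -0.34 or lower in experiment 3. No test was made of this difference. The order of the 3 groups, B6 highest and IAb-/- lowest, was the same in the 3 experiments.

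The other H2-M3 probe set did not show this. It read -248 and 10.0 in CIITA-/- cells and 128 and 291.5 in IAb-/- cells, against -181 and -99.5 in B6 cells, and in experiment 1 it read 323, 727 and -51.8 in the same order of groups. All 9 values lie under the noise limit, where no level is measured. It entered the test through its IAb-/- arrays, the only ones above the floor of 123.5, and both CIITA-/- and both B6 values lie under that floor. Its fitted CIITA-/- difference is therefore 0 by construction.

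**Figure D2:**
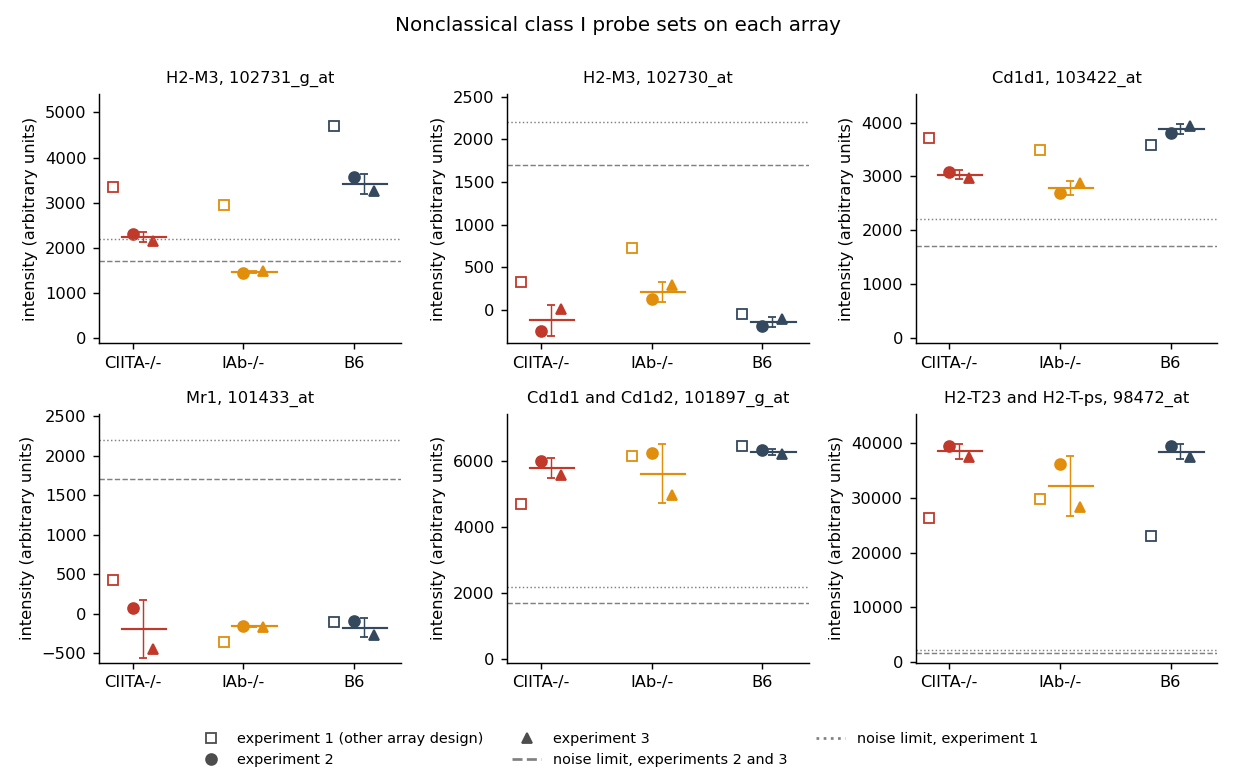
Intensity on each array (y axis, arbitrary units) of 6 probe sets in CIITA-/-, IAb-/- and B6 dendritic cells; squares, circles and triangles are experiments 1, 2 and 3, lines with bars are the mean and SD of experiments 2 and 3, and dashed and dotted lines are the noise limits of the 2 array designs. The brighter H2-M3 probe set (upper left) is lowest in IAb-/- and highest in B6 in each experiment, Cd1d1 is below B6 in both knockouts in experiments 2 and 3 and near it in experiment 1, and the other H2-M3 probe set and Mr1 stay under the limits.

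Cd1d1 had a smaller difference that experiment 1 did not show. Its probe set read 3088 and 2969 in CIITA-/- cells and 2697 and 2882 in IAb-/- cells, against 3810.5 and 3944 in B6 cells. Both knockout groups lay below B6 without overlap in these experiments, but how many of all probe sets do so was not counted. In experiment 1 it read 3717 in CIITA-/- cells and 3492 in IAb-/- cells, against 3594 in B6 cells, so that the 3 values were close and CIITA-/- was the highest.

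The Cd1d1 mean was 3029 ± 84.1 in CIITA-/- cells and 3877 ± 94.5 in B6 cells (SD, n = 2 each), a log2 difference of -0.36 (SE 0.13, 95% interval -0.71 to -0.0029). It did not pass over all probe sets (limma, adjusted p = 0.85, unadjusted p = 0.049). Within experiments the CIITA-/- differences were 0.05, -0.30 and -0.41 in experiments 1, 2 and 3. In IAb-/- cells the mean was 2789 ± 131 (SD, n = 2), and the log2 differences from B6 were -0.04, -0.50 and -0.45. The lowest CIITA-/- value, 2969, lay above the highest IAb-/- value, 2882, a gap no larger than the spread within the IAb-/- arrays.

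A second probe set is assigned to both Cd1d1 and its neighbour Cd1d2, and cannot be read as either alone. It read 6007 and 5576 in CIITA-/- cells and 6254 and 4988 in IAb-/- cells, against 6343 and 6229 in B6 cells. In experiment 1 it read 4713 in CIITA-/- cells and 6161 in IAb-/- cells, against 6472 in B6 cells. Its CIITA-/- differences were -0.46, -0.08 and -0.16 in experiments 1, 2 and 3, so here experiment 1 had the largest drop while the probe set of Cd1d1 alone showed none there. The fitted log2 difference was -0.12 (SE 0.17, limma adjusted p = 0.94). The probe set of Cd1d2 alone lay under the noise limit on all 9 arrays.

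Mr1 was not measured. Its probe set read 65.7 and -454.5 in CIITA-/- cells and -154 and -164 in IAb-/- cells, against -95.6 and -267 in B6 cells. In experiment 1 it read 424 in CIITA-/- cells and -355 in IAb-/- cells, against -107 in B6 cells. All 9 values are far under the noise limits, and the probe set did not pass the filter on low values. This says that no Mr1 signal was detectable with these probes, not that the transcript is missing.

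For H2-T23 the nearest reading is a probe set assigned to H2-T23 and to the pseudogene H2-T-ps. It read 39425 and 37513 in CIITA-/- cells and 36098 and 28254 in IAb-/- cells, against 39409 and 37503 in B6 cells. The CIITA-/- and B6 values were nearly the same within experiment 2 and within experiment 3. In experiment 1 it read 26314 in CIITA-/- cells and 29728 in IAb-/- cells, against 23111 in B6 cells, which was then the lowest. The fitted CIITA-/- difference was 0.0005 on the log2 scale, with a 95% interval of -0.46 to 0.46 (limma, adjusted p = 1).

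In IAb-/- cells the H2-T23 and H2-T-ps probe set ran in the same order as the spike-in controls. Its log2 differences from B6 were 0.36, -0.13 and -0.41 in experiments 1, 2 and 3, which do not share a direction. The 5' probe set of Cre, a spiked-in control transcript, read 99616 and 58224 on the IAb-/- arrays of experiments 2 and 3, against 71464 to 79408 on the other 4. The part of this in the low IAb-/- value of experiment 3 was not tested. The brighter H2-M3 probe set read 1447 and 1492 on the same IAb-/- arrays. Both values lie under the noise limit and cannot be ordered, and the part of the spike difference in them was not tested. A further probe set lists H2-T23 among 10 symbols, with the classical genes H2-K1 and H2-D1 among them, and its fitted log2 differences were -0.11 in both comparisons. By experiment they changed sign, with 0.11, -0.04 and -0.19 in CIITA-/- and 0.25, 0.12 and -0.34 in IAb-/- cells. Without the IAb-/- array of experiment 3 the fitted IAb-/- difference was 0.14, and leaving out 1 array moved the CIITA-/- one between -0.21 and -0.014.

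**Figure D3:**
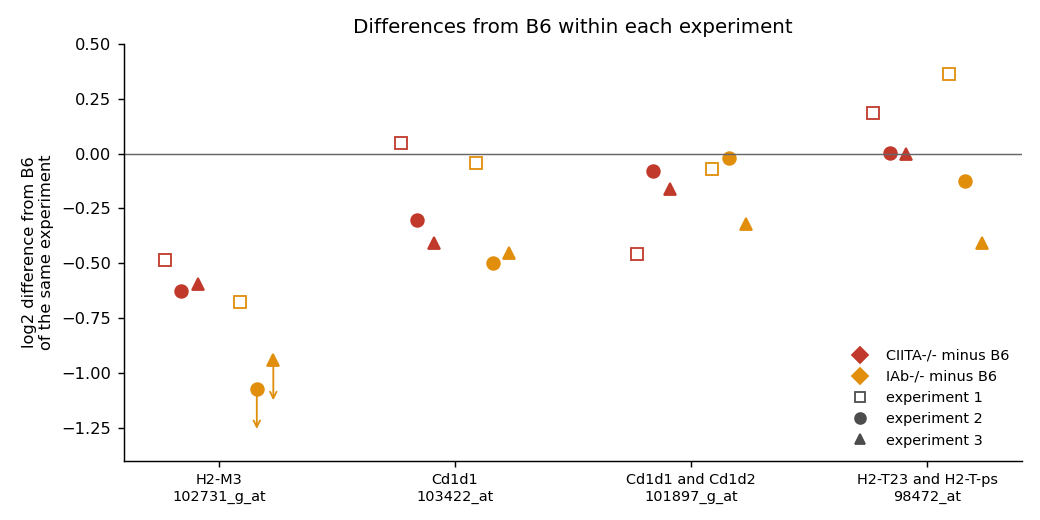
Log2 difference from the B6 array of the same experiment (y axis) for 4 probe sets, CIITA-/- minus B6 on the left and IAb-/- minus B6 on the right of each pair; squares, circles and triangles are experiments 1, 2 and 3, and arrows mark bounds, where the IAb-/- value lay under the noise limit and was set to it. H2-M3 lies below 0 in all 6 differences, with bounds of -1.07 and -0.94 in IAb-/- cells of experiments 2 and 3, while the H2-T23 and H2-T-ps probe set lies on both sides of 0.

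Of the 4 member probe sets 3 passed the filter on low values, but the dimmer one of H2-M3 has a CIITA-/- difference of 0 by construction and could not be called. Of the other 2, 0 passed in CIITA-/- against B6 at an adjusted p under 0.05 (limma), where 0.0966% of all probe sets passed and 0.0752% passed as lower. At an unadjusted p under 0.05 there were both, where 5.86% of all did. The B6 arrays are those through which H2-M3 was chosen, and members were chosen with earlier results known, so nothing is read from this count. These 2 probe sets have means above the noise limit on both designs. Of them, 1 was lower in CIITA-/- in all 3 experiments, where 13.8% of 3332 such probe sets were. In the other direction, 0 were higher in all 3, where 17.0% were. In IAb-/- both were lower in all 3, where 13.9% were. That comparison chose H2-M3, and nothing is read from it either.

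In CIITA-/- cells the highest H2-M3 difference of the 3 experiments was -0.49, and 9 other probe sets of 3332 were also at -0.49 or lower in each. Of these 9, 7 carry symbols of the class II molecule or of its loading factor H2-DM: H2-Aa, H2-Ab1, H2-Eb1, H2-DMa, H2-DMb2, H2-DMb1 and a set shared by the last pair. The remaining ones were H2-M2, another nonclassical class I gene, and Wnk1, a kinase. In IAb-/- cells the highest H2-M3 difference was -0.68, and only 1 other probe set was at -0.68 or lower in each experiment. It was Pla2g7, which breaks down platelet-activating factor, at -1.08, -1.15 and -1.17. A probe set counted in this way need not lie below H2-M3 within each experiment. The limits in these counts are H2-M3's own values, so the counts describe its place and test nothing, and these genes were named after their values were seen.

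By the likeness rule, the Pearson correlation with the brighter H2-M3 probe set over the 9 arrays, centred within each experiment, was highest among 3501 probe sets for Ethe1 (0.967), Sin3a (0.954), Golph3l (0.941), Mrps36 (0.94) and Rnasek (0.934). The 3 arrays of an experiment share a centre, so the 9 points are not independent, 2 of the H2-M3 values lie under the noise limit, and the values only describe likeness. The changes behind them were smaller than that of H2-M3: Ethe1, a mitochondrial sulfur dioxygenase, had log2 differences of -0.04, -0.09 and -0.13 in CIITA-/- and -0.15, -0.22 and -0.23 in IAb-/- cells. Sin3a, a scaffold of histone deacetylase complexes, had -0.27, -0.10 and -0.15 in CIITA-/- and -0.38, -0.39 and -0.43 in IAb-/- cells. On the same measure Cd1d1 stood at 0.889, Tap1 at 0.859, H2-Aa at 0.07, H2-D1 at -0.29, H2-K1 at -0.42 and B2m at -0.46.

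Genes of the rest of the class I pathway passed in neither comparison, where few genes passed at all. Across 5 lists 47 genes were tested and 0 passed, where 0.0966% of all probe sets passed in CIITA-/- and 0.0107% in IAb-/- against B6. Counted by gene, 7 of 6711 passed in CIITA-/- and 0 in IAb-/-, so 0 of 47 does not set these lists apart. In each, 3 of the 47 had an unadjusted p under 0.05 (limma), beside 5.86% of all probe sets in CIITA-/- and 4.31% in IAb-/-. By gene, 355 of the 6711 did in CIITA-/- and 276 in IAb-/-. The 3 list genes were H2-M2, H2-Q10 and Npc1 in CIITA-/- cells and Procr, Npc1 and Irf1 in IAb-/- cells. B2m, the shared light chain, was at 86779 ± 701 in CIITA-/- cells and 83634 ± 917 in B6 cells (SD, n = 2 each), and at 110279 and 73146 on the IAb-/- arrays of experiments 2 and 3, whose spikes differ in the same way. The classical heavy chains H2-K1 and H2-D1 had log2 differences of 0.08 and 0.04 in CIITA-/-, and of 0.04 and -0.02 in IAb-/- cells, in experiments 2 and 3. In experiment 1 they had 0.29 and 0.25 in CIITA-/-, and 0.43 and 0.47 in IAb-/- cells. The 2 IAb-/- arrays lay apart: H2-K1 read 123221 and 85207 on them, against 102713 and 96683 in B6 cells. Each gene was read by only the brightest of its 3 probe sets, and whether that one reads its gene alone was not tested. H2-K1 and H2-D1 both hold the X2 and Y pair that H2-M3 holds, and a link between the pair and these differences was not tested.

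Among 12 other class I and class I-like heavy chains tested, the median log2 difference was 0.07 in CIITA-/- and -0.08 in IAb-/- cells, beside 0.01 in both over all genes. H2-M2 stood apart in CIITA-/- cells. It read 7404.5 and 7588 in CIITA-/- cells and 12796 and 10998 in IAb-/- cells, against 11308 and 14028.5 in B6 cells. In experiment 1 it read 11103 in CIITA-/- cells and 16648 in IAb-/- cells, against 28332 in B6 cells. The log2 difference in CIITA-/- was -0.75 (SE 0.18, limma adjusted p = 0.6, unadjusted p = 0.0099). H2-Q4 had 0.09 in CIITA-/- and -0.07 in IAb-/- cells, and H2-Bl had 0.00015 in CIITA-/- and -0.13 in IAb-/- cells. H2-Q10 had 0.43 in CIITA-/- cells. Procr, the class I-like receptor of protein C, had 0.02 in CIITA-/- and 0.48 in IAb-/- cells.

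The 11 genes tested that load class I or supply its peptides had medians of -0.08 in CIITA-/- and -0.05 in IAb-/- cells. Tap1, which carries peptides into the endoplasmic reticulum, was at 13532.5 ± 753 in CIITA-/- cells and 13184 ± 262 in IAb-/- cells, against 15015 ± 78.4 in B6 cells (SD, n = 2 each). Its log2 differences were -0.15 and -0.19, and -0.20 and -0.14 in experiment 1, in the order CIITA-/- and IAb-/-; neither passed (limma, adjusted p = 0.93 in CIITA-/-). Psmb8, an immunoproteasome subunit, had -0.08 and -0.04, Psme1, a proteasome activator subunit, -0.07 and -0.11, and Tapbp, the tapasin that bridges class I to the transporter, -0.16 and -0.05, in the same order.

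For the lipid route, the 12 genes of CD1 loading and trafficking tested had medians of 0.14 in CIITA-/- and 0.10 in IAb-/- cells. Psap, the precursor of the saposins that load lipids on CD1d, had log2 differences of 0.17 in CIITA-/- and 0.30 in IAb-/- cells, Ctss, a lysosomal protease, 0.03 and 0.02, Cd74, the invariant chain, 0.11 and 0.14, and Npc2, a lysosomal sterol carrier, -0.0031 and -0.05, each in the order CIITA-/- and IAb-/-. Npc1, the membrane partner of Npc2, had 0.41 in CIITA-/- and 0.40 in IAb-/- cells, and 0.05 and -0.06 in experiment 1. Cd74 differed more in experiment 1, by 1.25 in CIITA-/- and 0.94 in IAb-/- cells. Mttp, a lipid transfer protein needed for CD1d loading, was under the noise limit on all 6 arrays of experiments 2 and 3. The 10 regulators of class I transcription tested had medians of -0.09 in CIITA-/- and -0.03 in IAb-/- cells. Irf8, an interferon regulatory factor that dendritic cells need, had -0.06 and 0.12, Rela, the p65 subunit of NF-kB, 0.08 and 0.09, Nfyc, a subunit of the factor that binds CCAAT, 0.22 and 0.18, and Ifngr2, a chain of the interferon gamma receptor, -0.12 and -0.16, again in that order. Irf1, an interferon-induced activator of class I genes, had -0.47 in CIITA-/- and -0.73 in IAb-/- cells, against 0.51 in CIITA-/- and -0.20 in IAb-/- cells in experiment 1. Nlrc5, the class I transactivator, has no probe set of its own in the table of experiments 2 and 3.

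**Figure D4:**
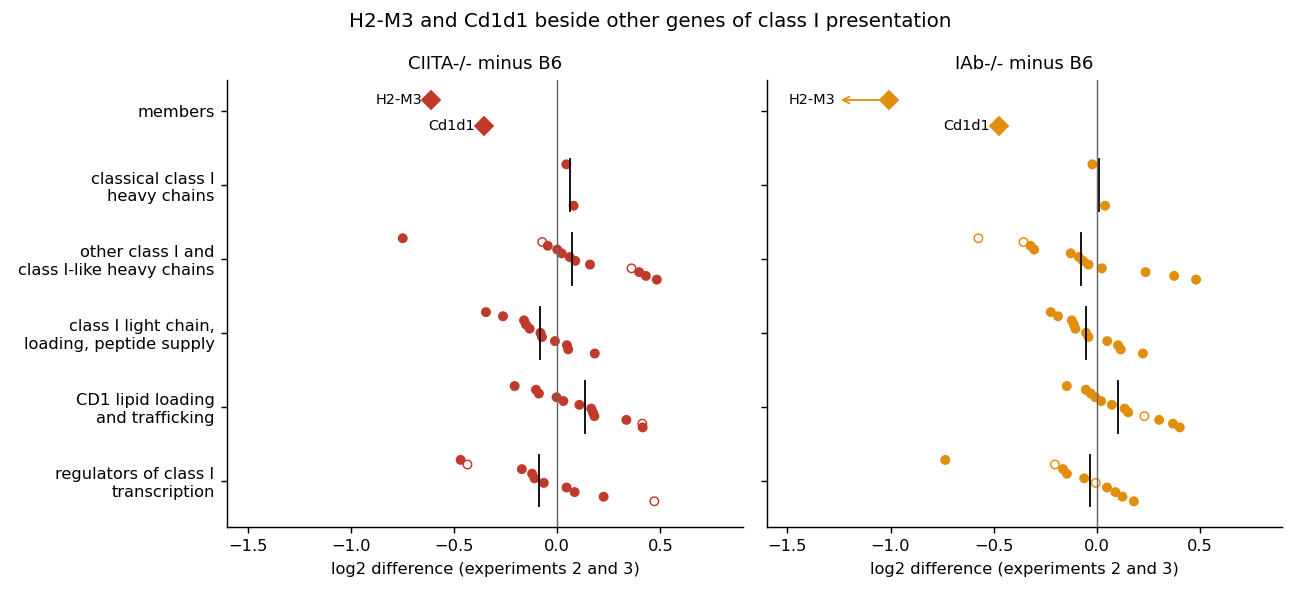
Log2 differences of experiments 2 and 3 (x axis) for the brighter H2-M3 probe set and Cd1d1 (diamonds) and for the genes of 5 lists (circles, each gene's brightest probe set; open circles lie under the noise limit on all 6 arrays), CIITA-/- minus B6 on the left and IAb-/- minus B6 on the right; black bars are list medians. The arrow marks the bound for H2-M3 in IAb-/- cells, at least 2.01-fold lower, in the comparison through which it was chosen; on the left only H2-M2 at -0.75 lies below H2-M3 at -0.61.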

How the data were processed

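The deposited tables hold 1 intensity per probe set and array on a linear scale; no source used here gives the algorithm, and the values themselves show that the deposited arrays share one 2% trimmed mean, between 2499.999 and 2500.001. The scale was kept. Values of experiments 2 and 3 under the 30th percentile (123.5) were set to it, and experiment 1 likewise at 93.2, before log2; this understates differences of dim probe sets. Probe sets above the floor on at least 2 arrays were fitted with limma 3.58.1 in R 4.3.3 over all 3 groups, with Benjamini-Hochberg adjustment over 9312 probe sets; the procedure was tested on simulated data. Experiment 1 took no part. Platform symbols were used where a probe set has 1 (10833 of 12488 and 10276 of 12654 probe sets), and promoter windows come from RefSeq. List genes were read by their brightest probe set; the genes named are the called ones and the 4 brightest per list, while Tap1, H2-Q10, Npc1, Irf1, Mttp and Nlrc5 were named after their values were seen. Alternatives were another floor, no filter, quantile normalization, a replicate block and leaving out each array. Members, lists and noise limits were chosen with earlier results of these data known. Same-numbered arrays of 2 groups had correlations of their deviations of 0.0478, 0.0787 and 0.215, and the main fit did not pair arrays. Differences within experiments and the likeness values do pair arrays by the experiment in the labels, and are descriptions. The replicate block among the alternatives pairs them in a fit.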

Additional observations from a re-analysis of the deposited data

How the results depend on the processing

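The counts of probe sets passing over the whole table, 9 in CIITA-/- and 1 in IAb-/- against B6, depended on each choice tried except that quantile normalization left the first at 10. In the order CIITA-/- and IAb-/-, they were 3 and 0 with the floor at the noise limit, 14 and 5 with no filter on low values, 0 and 0 with the experiment as a replicate block, and 4 and 0 with that block over all 9 arrays; quantile normalization gave 3 in IAb-/-. Leaving out 1 array gave 0 to 1 in CIITA-/- and 0 to 0 in IAb-/-. The cause was not tested. The brighter H2-M3 probe set stayed below B6 in CIITA-/- under all 11 alternatives, from -0.68 to -0.55 on the log2 scale, with limma adjusted p from 0.3 to 1 (-0.57 with the block over all 9 arrays), and in IAb-/- it was -1.01 with the floor at the noise limit, under which its IAb-/- values lie. Cd1d1 stayed below B6 too, from -0.38 to -0.22 in CIITA-/- and from -0.52 to -0.33 in IAb-/-. The near-zero CIITA-/- difference of the H2-T23 and H2-T-ps probe set changed sign with quantile normalization (-0.030), without B6 replicate 3 (-0.035) and without CIITA-/- replicate 2 (-0.035); over the arrays left out it ran between -0.035 and 0.036. That of Cd1d2 alone, under the noise limit, changed sign without B6 replicate 3 (-0.29) and without CIITA-/- replicate 3 (-0.59), and reached 1.31 without CIITA-/- replicate 2. The IAb-/- difference of the probe set with 10 symbols was 0.14 without IAb-/- replicate 3 and -0.36 without IAb-/- replicate 2. With 2 arrays per group, a lone array was assumed to vary like the other groups, and a signal under the noise limit has no measured level.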
